A study of Homo sapiens with 4 samples.

Results

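Cadherins and the catenins that bind them form the adherens junctions between epithelial cells, and this account covers 10 genes of that system in lung adenocarcinoma cells with and without ADAR knockdown. The genes were CDH1, CDH2, CDH3, CDH6, CDH11, CDH17, CTNNA1, CTNNB1, CTNND1 and CTNNAL1, and every probe that the platform annotation gives to one of these symbols was taken, which made 23 of the 47322 probes. A probe counted as detected on an array where its detection p-value, which compares it with that array's negative controls, was under 0.05, and it was tested if 2 or more arrays detected it. That held for 15 of the 23 probes and 9 of the 10 genes, among 21263 tested probes in all.

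The cells were H358, an established human lung adenocarcinoma line, profiled on Illumina HT-12 BeadChips, which read 1 colour. There were 2 arrays of cells given an shRNA against ADAR, a hairpin RNA used to deplete the transcript of this adenosine-to-inosine RNA editing enzyme, and 2 arrays of cells given scrambled sequences. All 4 samples are labelled as total RNA of the same line, and the labels give neither the time after transfection nor whether a group was 1 clone. Both ADAR shRNA arrays are titled ADAR B, and what B stands for is not stated. The replicates are called biological, but nothing says that they came from separate cultures, so the p-values measure only the spread between these samples, which may be technical.

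A classical cadherin spans the membrane and binds the same cadherin on the next cell through its extracellular repeats. Its tail holds beta-catenin or plakoglobin, alpha-catenin links these to actin, and p120-catenin keeps the cadherin at the surface. Epithelial cells mainly use E-cadherin, the product of CDH1. In an epithelial to mesenchymal transition E-cadherin is lost while N-cadherin, the product of CDH2, often appears, which is known as a cadherin switch. Beta-catenin also has a signalling role, since in the Wnt pathway it enters the nucleus and acts with TCF factors.

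ADAR itself was lower, with raw signals of 755 and 932 on the ADAR shRNA arrays, against 2703 and 2676 on the scrambled arrays, at its brightest probe ILMN_1776777 (log2 change -1.01, SE 0.22, adjusted p = 0.00637), while its other tested probe, ILMN_2320964, gave -0.19 (adjusted p = 0.562). The call of ILMN_1776777 ended without ADAR shRNA replicate 1 (-0.85). In limma ILMN_2320964 was called lower with median scaling between arrays (-0.90, adjusted p = 0.0397) and with no scaling (-1.04, adjusted p = 0.0329). The median log2 change of all genes was also lower there (-0.54 and -0.68), and no other setting called this probe. Log2 values correlated across probes at 0.986 between the ADAR shRNA arrays and 0.982 between the scrambled arrays, but at 0.799 to 0.823 between arrays of different groups. Whether both groups are cells of the line named in the labels was not tested, and every difference given here is one between these arrays. The ADAR shRNA arrays were dimmer, with upper quartiles of raw signal of 94.5 and 92.1, against 143 and 115 on the scrambled arrays. Of all tested probes 50.5% were called at an adjusted p under 0.05 in limma, 24.2% higher and 26.2% lower in ADAR shRNA cells. Of the 9 epithelial and lung adenocarcinoma markers examined, 7 were tested, 5 of these fell and 1, MUC1, rose. Their summed raw signal was 2955 and 2677 on the ADAR shRNA arrays, against 22241 and 21446 on the scrambled arrays. EPCAM and NKX2-1 were undetected on both ADAR shRNA arrays, and NAPSA and SFTPB were undetected on all 4 arrays. Fibroblast markers summed to 362 and 363 on the ADAR shRNA arrays, against 565 and 488 on the scrambled arrays, and endothelial markers to 202 and 201 on the ADAR shRNA arrays, against 258 and 232 on the scrambled arrays. The haematopoietic markers summed to 816 and 1342 on the ADAR shRNA arrays, against 264 and 217 on the scrambled arrays. CD14 alone read 711 and 1233 on the ADAR shRNA arrays, against 153 and 110 on the scrambled arrays, and PTPRC and CD3E were undetected on all 4 arrays. Of the endothelial markers VWF, KDR and TEK were undetected on all 4 arrays. PECAM1 was undetected on both ADAR shRNA arrays and was not called (adjusted p = 0.136). Of the fibroblast markers COL1A2, COL3A1 and DCN did not pass the filter, and of the 3 tested 1 rose and 2 fell. The endothelial and fibroblast sums therefore hold much signal at or near background. The call of MUC1 was lost with median scaling, without scaling, with the authors' values, with no filter on detection, and when either ADAR shRNA array or scrambled replicate 1 was left out, so that 0 of the epithelial markers were higher there, while 5 were lower each time. The part of these differences in the cadherin results was not tested.

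Between ADAR shRNA and scrambled cells, E-cadherin and P-cadherin transcripts went to background, N-cadherin and cadherin 11 differed little, and tested catenin probes changed by -0.98 to 1.11 on the log2 scale. Among the 15 tested probes 2 were called higher and 5 lower, 46.7% in all, which is close to the 50.5% of all tested probes. With each gene represented by its brightest tested probe, 1 gene rose and 4 fell of 9, or 55.6%, against 54.3% of all 12197 genes tested (24.1% higher and 30.2% lower). The share of members that changed was therefore near that of all genes. The groups did not overlap at 12 of the 15 probes, against 75.7% of all tested probes.

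**Figure D1:**
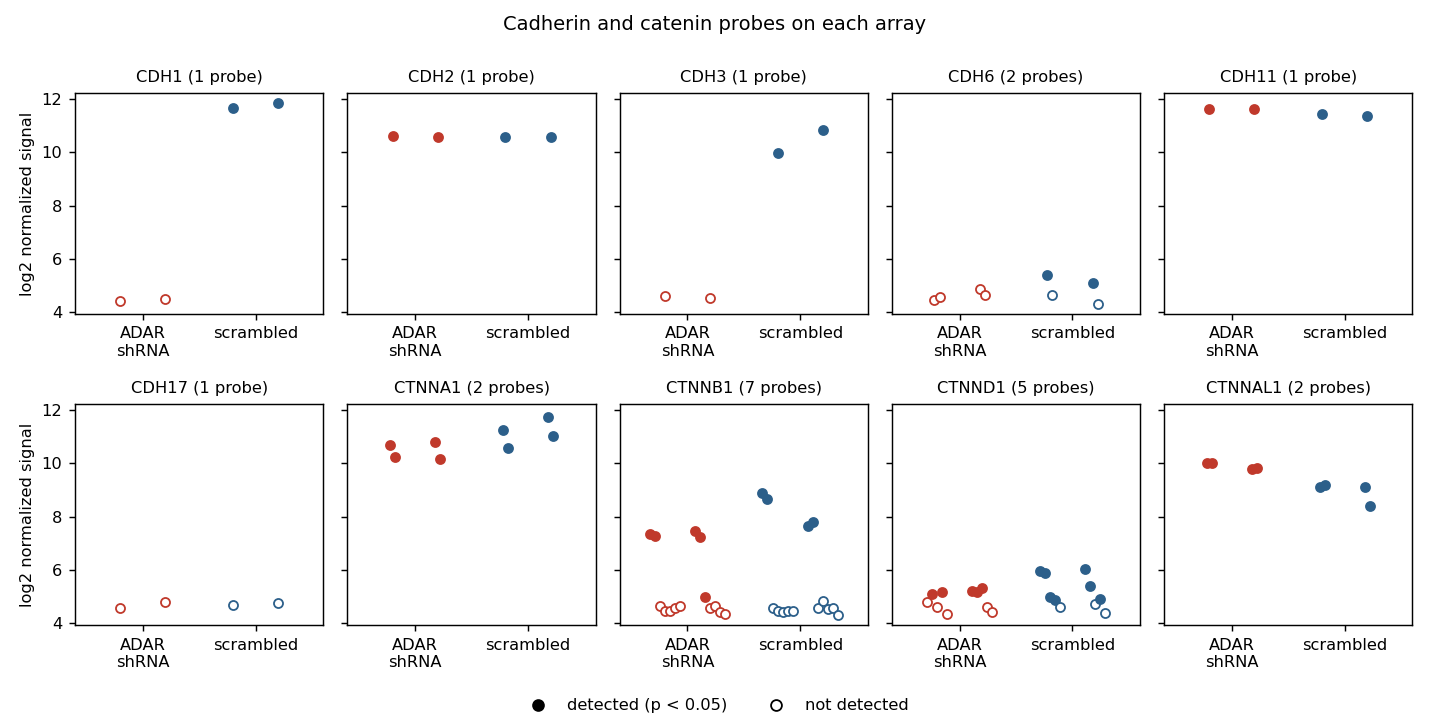
Log2 normalized signal (vertical axis) of all 23 probes of the 10 genes on each array, ADAR shRNA arrays in red left of the scrambled arrays in blue, with replicate 1 left of replicate 2 in each group and open circles for values not above background. CDH1 and CDH3 are filled and high on both scrambled arrays and open and low on both ADAR shRNA arrays, while CDH2 and CDH11 stay at nearly the same height on all 4 arrays.

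CDH1, the gene of E-cadherin, was read by probe ILMN_1770940. Its raw signals were 51.2 and 52.1 on the ADAR shRNA arrays, with bead standard errors of 3.03 and 3.13, against 4289 and 3839 on the scrambled arrays, with bead standard errors of 132 and 76.9. Both scrambled arrays were far above background, and both ADAR shRNA arrays had values that no longer stood out from the negative controls. On the log2 normalized scale the means were 4.47 ± 0.05 in ADAR shRNA cells and 11.76 ± 0.12 in scrambled cells (SD, n = 2 each). The transcript was at least 114-fold lower in ADAR shRNA cells (adjusted p = 5.18e-07 in limma). This fold is a bound, since it sets the scrambled mean against the lowest signal that counted as detected on the ADAR shRNA arrays. The fitted log2 change was -7.29 (95% interval -7.73 to -6.84), and its size rests on ADAR shRNA values that were not above background. In such bulk RNA, fewer cells that express a gene and less of its RNA per cell cannot be told apart.

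CDH3, which encodes P-cadherin, a classical cadherin of basal and placental epithelia, moved with CDH1. Probe ILMN_1704294 gave raw signals of 56.6 and 53.4 on the ADAR shRNA arrays, against 1443 and 2032 on the scrambled arrays. The ADAR shRNA arrays were again not above background, and the scrambled arrays differed from each other by more than they did for CDH1, with means of 4.58 ± 0.05 in ADAR shRNA cells and 10.39 ± 0.61 in scrambled cells (SD, n = 2 each). The transcript was at least 44.3-fold lower in ADAR shRNA cells (adjusted p = 6.66e-06 in limma), and the fitted log2 change of -5.81 again rests on values not above background in these cells. CDH1 and CDH3 are neighbours on chromosome 16 in the RefSeq annotation of GRCh38.p14: CDH1 is the next protein-coding gene after CDH3, with 2 other annotated genes between them in order of start. CDH11 lies on chromosome 16 as well, but is not adjacent to them. Both falls kept their direction and their call under all 14 alternatives in which the probes were tested.

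The genes whose centred log2 values over the 4 arrays lay closest to those of CDH1 were GAGE12F, GAGE12H and GAGE12B, at Euclidean distances of 0.23, 0.24 and 0.35 on the log2 scale. These are cancer-testis antigen genes with near-identical copies, so their probes may read the same transcripts. GAGE12F, for example, averaged 4.46 ± 0.04 in ADAR shRNA cells and 11.74 ± 0.09 in scrambled cells (SD, n = 2 each). Like CDH1, all 3 were undetected on both ADAR shRNA arrays and passed the filter through the scrambled arrays alone. The match therefore rests on similar scrambled signals and on values not above background.

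CDH2, the gene of N-cadherin, did not rise as CDH1 fell. Probe ILMN_1779228 gave raw signals of 1203 and 1152 on the ADAR shRNA arrays, against 2174 and 1753 on the scrambled arrays, and normalized log2 values of 10.59 and 10.56 in ADAR shRNA cells, against 10.59 and 10.59 in scrambled cells. The gene was thus well above background in both groups, scrambled cells with abundant E-cadherin transcript included, and the groups overlapped after normalization. Its log2 change was -0.01 (SE 0.19, adjusted p = 0.968 in limma), and the 95% interval of -0.44 to 0.42 spans modest changes in either direction. Of all 12197 genes 46.9% had a change at least as high. With median scaling between arrays it was -0.61 (adjusted p = 0.0303) and unscaled -0.74 (adjusted p = 0.0263), both called lower, so that no scaling tried gave a rise that passed the test.

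CDH11, which encodes the type II cadherin known as OB-cadherin, typical of mesenchymal cells, was high in both groups. Probe ILMN_1672611 gave 2617 and 2613 in raw signal on the ADAR shRNA arrays, against 3744 and 2839 on the scrambled arrays. Normalized means were 11.62 ± 0.02 in ADAR shRNA cells and 11.40 ± 0.04 in scrambled cells (SD, n = 2 each). The groups did not overlap, but the change of 0.22 (SE 0.19, 95% interval -0.21 to 0.65, adjusted p = 0.359) did not pass the test, and it was -0.19 with median scaling and -0.32 without normalization.

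CDH6, which encodes the type II cadherin of kidney and some carcinomas, was near background. Its brighter probe ILMN_1766675 gave 51.4 and 60.7 in raw signal on the ADAR shRNA arrays, undetected on both, against 93.8 and 71.6 on the scrambled arrays, detected on both. The change of -0.58 (SE 0.23) did not pass over all probes (adjusted p = 0.0634). It was called lower with 1 probe per gene (adjusted p = 0.0466), without normalization (-0.84, adjusted p = 0.0402) and without ADAR shRNA replicate 2 (-0.84, adjusted p = 0.0493), and against background the difference was at least 1.25-fold. The other CDH6 probe was not detected on any array. CDH17, the gene of liver-intestine cadherin, was not detected on any array either, with raw signals of 56.2 and 59.5 on the ADAR shRNA arrays, against 66.6 and 63.2 on the scrambled arrays, so no change could be measured for it. Together with CDH1 and CDH3, the brighter CDH6 probe made 3 of 15 tested probes that were detected on both scrambled arrays and on neither ADAR shRNA array, a pattern seen in 10.1% of all tested probes. The opposite pattern was seen in 0 of the 15 and in 5.39% of all.

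The remaining cadherins of the family that could be tested were few. Of 17 others, 15 were on the array and 3 were tested, of which 2 were called higher and 1 lower. None of the 3 was detected on all 4 arrays: each passed the filter through the group in which it was high, so that their number says nothing of how often cadherins changed. CDH10, a type II cadherin known mainly from the nervous system, gave raw signals of 356 and 365 on the ADAR shRNA arrays, against 113 and 53.4 on the scrambled arrays. Only 1 of the scrambled arrays was above background, and CDH10 was at least 11.7-fold higher in ADAR shRNA cells (log2 change 3.74, SE 0.38, adjusted p = 0.000166). CDH19, a type II cadherin known from Schwann cell precursors, gave 244 and 242 on the ADAR shRNA arrays, against 69.8 and 63.9 on the scrambled arrays, where it was undetected. CDH19 was at least 10.2-fold higher in ADAR shRNA cells (adjusted p = 9.92e-06). CDH24, another type II cadherin, was at least 2.07-fold lower in ADAR shRNA cells (adjusted p = 0.00173), although its other tested probe gave a change of 0.12. The cadherin genes called higher were therefore CDH10 and CDH19, while CDH2 and CDH11 were not called.

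**Figure D2:**
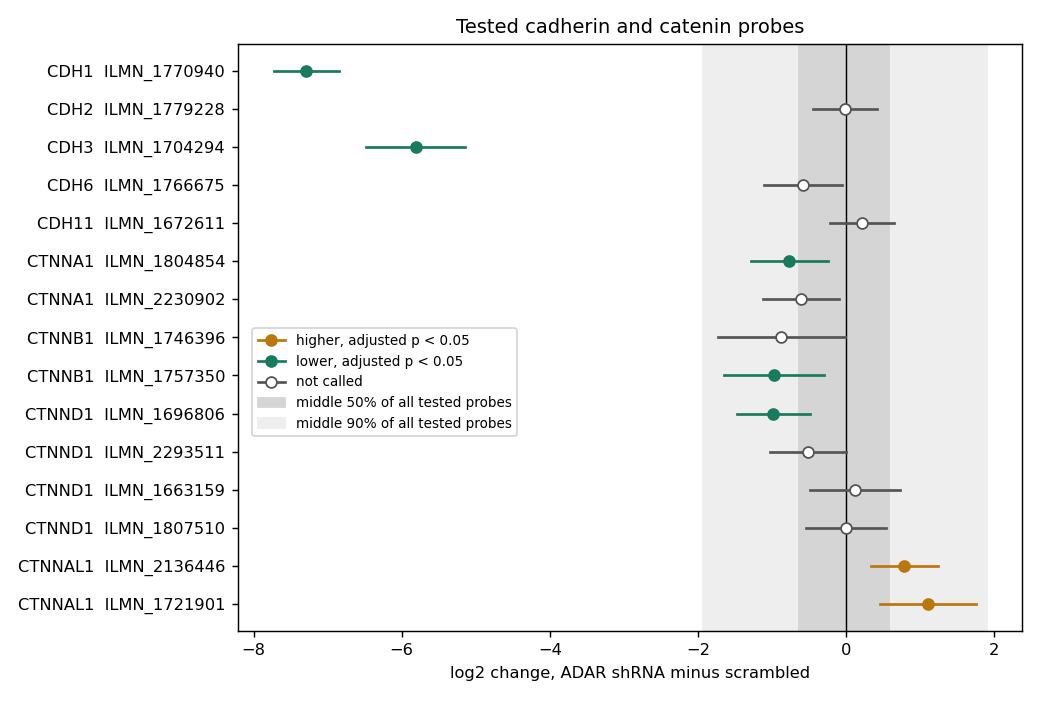
Log2 change (ADAR shRNA minus scrambled, horizontal axis) of each tested cadherin and catenin probe with its moderated 95% interval, over grey bands from the 25th to the 75th and from the 5th to the 95th percentile of all tested probes. The CDH1 and CDH3 probes lie at -7.29 and -5.81, outside both bands, and every catenin probe lies within the wider band.

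Of the catenins, CTNNA1, which encodes alpha-E-catenin, the link from the cadherin complex to actin, was lower at its brighter probe. Probe ILMN_1804854 gave raw signals of 1273 and 1379 on the ADAR shRNA arrays, against 3351 and 3618 on the scrambled arrays. After normalization the means were 10.73 ± 0.08 in ADAR shRNA cells and 11.50 ± 0.34 in scrambled cells (SD, n = 2 each), with no overlap, a change of -0.77 (SE 0.22, adjusted p = 0.0227). The other probe, ILMN_2230902, gave -0.61 and just missed the threshold (SE 0.22, adjusted p = 0.0518). The call of the brighter probe was lost without ADAR shRNA replicate 1 (-0.69, adjusted p = 0.111), without ADAR shRNA replicate 2 (-0.79, adjusted p = 0.0756) or without scrambled replicate 2 (-0.54, adjusted p = 0.1), with the authors' values (adjusted p = 0.0711) and with no filter on detection (adjusted p = 0.057).

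CTNNB1, which encodes beta-catenin, had 7 probes, of which 5 did not pass the filter. The 2 tested probes both gave lower means in ADAR shRNA cells, and 1 of them passed the test. ILMN_1746396 gave raw signals of 158 and 165 on the ADAR shRNA arrays, against 735 and 260 on the scrambled arrays, a change of -0.87 (SE 0.37, adjusted p = 0.0819). ILMN_1757350 gave 152 and 148 on the ADAR shRNA arrays, against 636 and 283 on the scrambled arrays, a change of -0.97 (SE 0.29, adjusted p = 0.0251). The ADAR shRNA arrays were alike and below both scrambled arrays, whereas scrambled replicate 1 was well above scrambled replicate 2 at both probes. The size of the change followed from which scrambled array was used. Without scrambled replicate 2, ILMN_1746396 changed by -1.47 (adjusted p = 0.0041) and ILMN_1757350 by -1.40, while without scrambled replicate 1 the values were -0.25 (adjusted p = 0.396) and -0.51 (adjusted p = 0.096). ILMN_1757350 also missed the threshold when either ADAR shRNA array was left out (adjusted p = 0.0839 without replicate 1 and 0.0878 without replicate 2), with the authors' values (adjusted p = 0.119) and with no filter (adjusted p = 0.107).

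CTNND1, which encodes p120-catenin, gave low signals and mixed probes. Its brightest probe, ILMN_1696806, read 61.3 and 66.5 in raw signal on the ADAR shRNA arrays, against 125 and 105 on the scrambled arrays, a fall with a log2 change of -0.98 (SE 0.21, adjusted p = 0.00623). Of the ADAR shRNA arrays 1 was above background, and against background the fall was at least 1.89-fold. ILMN_2293511, the only CTNND1 probe detected on all 4 arrays, gave -0.52 (SE 0.22, adjusted p = 0.0857), and the probes ILMN_1663159 and ILMN_1807510 gave 0.12 (SE 0.26) and 0.0017 (SE 0.23), all near the limit of detection. The platform annotation gives ILMN_1696806 another reference transcript than the other CTNND1 probes, and whether they read different isoforms was not tested.

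CTNNAL1, which encodes alpha-catulin, a relative of alpha-catenin, was the only member that rose, and it did so at both of its probes. ILMN_2136446 gave normalized log2 values of 10.01 and 9.80 in ADAR shRNA cells, against 9.11 and 9.12 in scrambled cells, a change of 0.79 (SE 0.19, adjusted p = 0.0109). ILMN_1721901 gave 10.01 and 9.83 in ADAR shRNA cells, against 9.21 and 8.41 in scrambled cells, a change of 1.11 (SE 0.28, adjusted p = 0.0123). The raw signals did not show this, with 807 and 676 on the ADAR shRNA arrays, against 840 and 672 on the scrambled arrays, for ILMN_2136446. That rise was therefore one relative to the rest of the array, and median scaling gave 0.12 (adjusted p = 0.652) and unscaled values gave -0.018 (adjusted p = 0.955). It was also lost without ADAR shRNA replicate 1 (0.67, adjusted p = 0.0797). ILMN_1721901 lost its call in these 3 settings too (adjusted p = 0.31, 0.516 and 0.0679), and with the authors' values (adjusted p = 0.0863) and no filter (adjusted p = 0.064).

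The scaling between arrays moved the median log2 change of all genes from -0.08 with quantile normalization to -0.54 with median scaling and -0.68 with none, and the share of called genes that were higher from 44.3% to 21.9% and 17.4%. Changes are therefore also given relative to that median. On this scale CDH2 lay at 0.07 with quantile normalization, 0.01 with cyclic loess and -0.07 with either of the other settings, that is, beside the median gene each time. Median scaling and no scaling differ only by a constant for each array, so on this scale they give the same values by construction. CDH11 lay between 0.29 and 0.36, CTNNAL1 between 0.66 and 0.89, CTNNA1 between -0.74 and -0.69 and the brightest CTNNB1 probe between -0.96 and -0.75. CDH1 and CDH3 lay at -6.62 or lower and at -5.31 or lower. With median scaling 0 member genes were called higher and 6 lower, and with no normalization 0 higher and 7 lower.

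**Figure D3:**
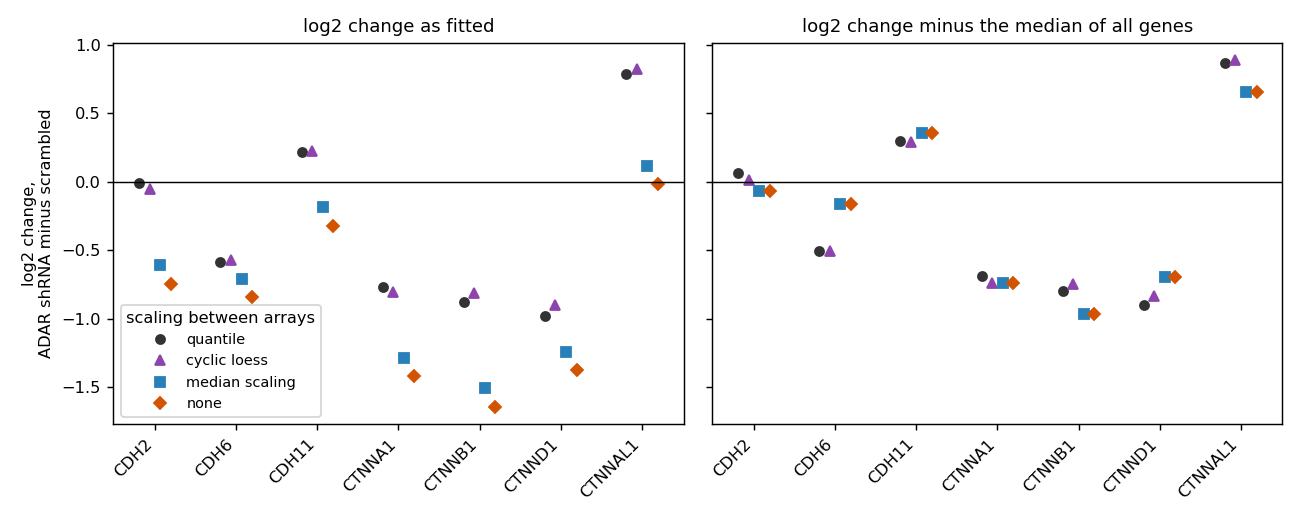
Log2 change (ADAR shRNA minus scrambled) of the brightest tested probe of 7 members under 4 scalings between arrays, as fitted on the left and minus the median of all genes on the right. CDH1 and CDH3 are left out because they lie far below the axis. The fitted values spread with the scaling, and relative to the median CDH2 stays within 0.07 of 0 and CTNNAL1 stays between 0.66 and 0.89.

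Promoter sequence is shown for a member that fell, the member that rose and CDH2, which did neither, so that they can be compared. Windows from RefSeq's promoter table for GRCh38.p14 were taken for 4 of the 10 members, namely CDH2, CTNNA1, CTNNB1 and CTNNAL1. Promoter sequence of the other members was not examined. The 250 bases before the outermost listed start are printed 5′ to 3′ on the gene's strand, with capitals for the GC box GGGCGG or its reverse complement CCGCCC. The window of CTNNA1 is at chr5:138753175-138753424 on the plus strand, CTNNAL1 at chr9:109013500-109013749 on the minus strand and CDH2 at chr18:28177131-28177380 on the minus strand.
CTNNA1: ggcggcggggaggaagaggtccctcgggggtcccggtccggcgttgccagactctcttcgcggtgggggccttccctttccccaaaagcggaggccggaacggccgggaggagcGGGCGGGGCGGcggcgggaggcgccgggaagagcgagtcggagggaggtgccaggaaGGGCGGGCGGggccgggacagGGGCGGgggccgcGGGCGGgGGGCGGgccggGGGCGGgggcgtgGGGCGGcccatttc
CTNNAL1: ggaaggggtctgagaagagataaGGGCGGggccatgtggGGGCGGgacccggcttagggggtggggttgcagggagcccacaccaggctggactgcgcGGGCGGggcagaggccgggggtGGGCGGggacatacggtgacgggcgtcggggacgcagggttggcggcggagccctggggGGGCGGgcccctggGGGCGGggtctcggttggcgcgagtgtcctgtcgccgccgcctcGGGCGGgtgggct
CDH2: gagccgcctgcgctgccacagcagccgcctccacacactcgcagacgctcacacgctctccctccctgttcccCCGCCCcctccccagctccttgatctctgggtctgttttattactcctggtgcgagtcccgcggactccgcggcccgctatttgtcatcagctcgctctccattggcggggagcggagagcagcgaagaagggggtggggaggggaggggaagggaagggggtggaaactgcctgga
The window of CTNNA1 held 9 GC boxes, some of which overlap, that of CTNNAL1 held 7 and that of CDH2 held 1, and 42.2% of the 27326 genes in the table have at least 1 in the same window. The E-box letters CAGGTG or CACCTG, the core that SNAIL and ZEB repressors bind in the E-cadherin promoter, were in none of the 4 members' windows and in 17.5% of all. A match or its absence describes the letters of the window and nothing about a factor.

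Around the members, the structural partners of the adherens junction fell more often than they rose. Of 17 listed genes 15 were tested, 2 rose and 9 fell, with a median log2 change of -0.76 against -0.08 for all genes, of which 24.1% rose and 30.2% fell. With bounds in place of fitted values where a group was undetected, the list's median was -0.61. NECTIN4, PLEKHA7 and CAMSAP3, among those that fell, were undetected on both ADAR shRNA arrays and passed the filter through the scrambled arrays alone. SSX2IP, which rose, passed it through the ADAR shRNA arrays alone. With detection p under 0.01 required on all 4 arrays, 10 genes remained tested, 1 rose and 8 fell. NECTIN3, an immunoglobulin-type adhesion molecule of these junctions, averaged 6.02 ± 0.01 in ADAR shRNA cells and 8.59 ± 0.12 in scrambled cells (SD, n = 2 each), a change of -2.57 (SE 0.19, adjusted p = 3.46e-05). AJUBA, a LIM protein that binds alpha-catenin, changed by -2.23 (SE 0.20, adjusted p = 9.66e-05), and its other probe by -0.76. IQGAP1, a scaffold that binds beta-catenin and E-cadherin, rose by 1.76 (SE 0.19, adjusted p = 0.000227). SSX2IP, which encodes an afadin-binding protein, was at least 1.58-fold higher in ADAR shRNA cells and undetected in scrambled cells (adjusted p = 0.0186), and this call was lost under 8 alternatives, among them median scaling (adjusted p = 0.053). With median scaling 1 gene of the list rose and 12 fell, and 5 fell when ADAR shRNA replicate 1 or scrambled replicate 2 was left out, or 6 without ADAR shRNA replicate 2.

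Other catenins moved in different directions. Of 7 listed genes 4 were tested, 2 rose and 1 fell, while of all genes 24.1% rose and 30.2% fell. CTNND2, which encodes delta-catenin, a relative of p120-catenin known mainly from neurons, gave raw signals of 143 and 120 on the ADAR shRNA arrays, against 53.1 and 54.8 on the scrambled arrays, where it was undetected. CTNND2 was at least 4.49-fold higher in ADAR shRNA cells (adjusted p = 5.07e-05). JUP, the gene of plakoglobin, which can take the place of beta-catenin on the cadherin tail, changed by 0.85 (SE 0.23, adjusted p = 0.0186), and its other 2 probes by 0.98 and 1.09. The call of JUP ended when arrays were scaled by their medians (0.29, adjusted p = 0.271) or left unscaled (0.16, adjusted p = 0.563), with the authors' values, with no filter, and without ADAR shRNA replicate 1, ADAR shRNA replicate 2 or scrambled replicate 1 (adjusted p = 0.055 to 0.103). CTNNBIP1, an inhibitor that keeps beta-catenin from TCF factors, changed by -0.76 (SE 0.19, adjusted p = 0.0115), with adjusted p values from 0.0508 to 0.0573 without ADAR shRNA replicate 1, ADAR shRNA replicate 2 or scrambled replicate 2.

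Genes of cadherin processing and turnover included the largest rise among the listed partners. Of 12 listed genes 10 were tested, 3 rose and 2 fell, while of all genes 24.1% rose and 30.2% fell. PTPRM, a receptor phosphatase that binds its like on neighbouring cells and associates with cadherins, gave raw signals of 1114 and 1102 on the ADAR shRNA arrays, against 147 and 89.3 on the scrambled arrays. Both ADAR shRNA arrays were far above both scrambled arrays, and the log2 change was 4.50 (SE 0.24, adjusted p = 8.61e-06). PTPRK, a phosphatase of the same family, changed by 1.40 (SE 0.22, adjusted p = 0.00151), and by 0.78 when unscaled, which missed the threshold (adjusted p = 0.0698). CBLL1, the ubiquitin ligase HAKAI that removes E-cadherin from the surface, changed by -1.27 (SE 0.22, adjusted p = 0.00202), and its other probe by -1.39. PTPN1, a cytosolic phosphatase that acts on beta-catenin in the cadherin complex, changed by -1.16 (SE 0.20, adjusted p = 0.00223).

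Genes of the machinery that degrades beta-catenin changed both ways. Of 10 listed genes of the destruction complex 8 were tested, 3 rose and 2 fell, with a median of 0.14. Of all genes 24.1% rose and 30.2% fell. BTRC, which recognises phosphorylated beta-catenin for ubiquitination, changed by 1.37 (SE 0.19, adjusted p = 0.000745), and the scaffold gene AXIN1 by 1.11 (SE 0.21, adjusted p = 0.00337). AXIN1 did not pass with median scaling (0.43, adjusted p = 0.1) or unscaled (0.29, adjusted p = 0.297). The casein kinase genes CSNK1D and CSNK1E changed by -0.88 (SE 0.20, adjusted p = 0.00755) and -0.76 (SE 0.21, adjusted p = 0.0192). The call of CSNK1E was lost with the authors' values and without ADAR shRNA replicate 1, ADAR shRNA replicate 2 or scrambled replicate 2 (adjusted p = 0.0545 to 0.106). With median scaling 1 gene of the complex rose and 3 fell, and the median turned to -0.49, close to that of all genes.

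Downstream, 5 of 6 tested Wnt target genes fell and 0 rose, of 9 listed, while of all genes 30.2% fell and 24.1% rose. The median was -1.32, or -1.04 when bounds replace fitted values for undetected groups. RNF43 and SP5, among those that fell, were undetected on both ADAR shRNA arrays and passed the filter through the scrambled arrays alone. With detection p under 0.01 required on all 4 arrays, 2 target genes remained tested, and 2 fell. DKK1, a target that also inhibits Wnt receptors, averaged 5.67 ± 0.44 in ADAR shRNA cells and 8.51 ± 0.30 in scrambled cells (SD, n = 2 each), a change of -2.84 (SE 0.27, adjusted p = 0.000108). CCND1, the gene of cyclin D1, which many other pathways also control, was 4.01-fold lower in ADAR shRNA cells (SE of the log2 change 0.22, adjusted p = 0.000216). Of the 8 nuclear partners of beta-catenin 5 were tested, and PYGO1, a co-activator, was the only one to change, by 1.27 (SE 0.21, adjusted p = 0.00192). With median scaling the target genes again gave 0 rises and 5 falls, while 1 nuclear partner rose and 3 fell.

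Known regulators of CDH1 transcription changed in both directions. Of 13 listed genes 9 were tested, 3 rose and 5 fell, with a median of -0.99, while of all genes 24.1% rose and 30.2% fell. With detection p under 0.01 required on all 4 arrays, 4 remained tested, 2 rose and 1 fell, and the median turned to 0.50. SNAI2, which encodes SLUG, a repressor of CDH1, gave raw signals of 53.1 and 44.3 on the ADAR shRNA arrays, against 855 and 719 on the scrambled arrays. SNAI2, like CDH1, was detected on both scrambled arrays and on neither ADAR shRNA array, and was at least 19.2-fold lower in ADAR shRNA cells (adjusted p = 3.04e-06), and its other probe changed by -2.70. ZEB2, another repressor, was undetected on the scrambled arrays and at least 1.93-fold higher in ADAR shRNA cells, with raw signals of 88.1 and 72.6 there, against 66.3 and 61.9 on the scrambled arrays (adjusted p = 0.00542, and 0.0514 with the authors' values). SNAI1, ZEB1 and TWIST1, the other listed SNAIL, ZEB and TWIST repressors, were not tested because no probe passed the filter. OVOL2, an epithelial factor that represses ZEB genes, was at least 8.15-fold lower in ADAR shRNA cells (adjusted p = 7.97e-06). KLF4, an activator of CDH1 in breast epithelial cells, rose by 1.68 (SE 0.21, adjusted p = 0.000455), and its other probe by 1.13. The other called regulators were GRHL2, ELF3, CTBP1 and CTBP2. GRHL2 was at least 5.10-fold lower in ADAR shRNA cells (adjusted p = 6.35e-05) and ELF3 at least 4.43-fold lower (adjusted p = 0.00129). CTBP1 changed by -0.99 and CTBP2 by 0.98.

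**Figure D4:**
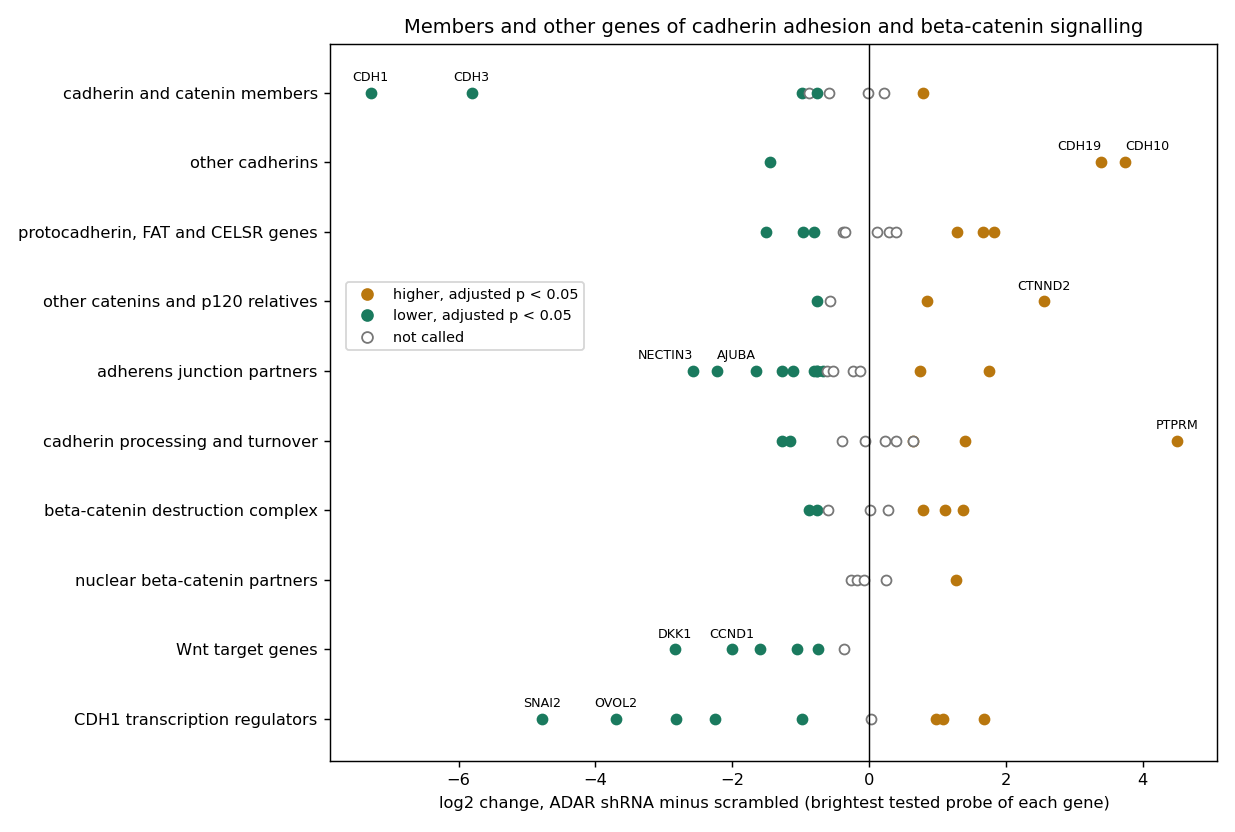
Log2 change (ADAR shRNA minus scrambled, horizontal axis) of the brightest tested probe of each gene, 1 row per gene list, with filled circles for genes called at an adjusted p under 0.05. CDH1 and CDH3 lie furthest to the left of all genes drawn and PTPRM, CDH10 and CDH19 furthest to the right, and the Wnt target row has no called gene to the right of 0.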

How the data were processed

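Gene expression was measured in 4 samples on Illumina BeadChips. Per the file headers, the deposited scanner table holds, per probe and array, a linear mean intensity, a count of beads (a median of 21, from 9 to 37, for the members), the standard error over beads and a detection p-value. The values came from GenomeStudio, per the submitters' processing notes, with no version given in the sources used here. A second table holds the authors' processed intensity values, with equal upper quartiles in all 4 columns and values below 0. Its method is not given in the sources used here, and it served only as an alternative.

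Raw intensities were corrected by limma's nec function (version 3.58.1, R 4.3.3), which infers the background from detection p-values (offset 16), then quantile normalized over all probes and put on the log2 scale. All 21263 probes that passed the filter were fitted with lmFit and eBayes (residual degrees of freedom 2, prior 5.685), without a block, 2-sided, with Benjamini-Hochberg adjustment over all of them. A gene was represented by its brightest tested probe. Adjusted p-values are from this fit unless a setting is named. For a probe undetected on both arrays of a group, or on 1 of them, a fold given as "at least" sets the brighter group's mean against a floor, for which each dim array contributes its lowest detected signal or, if larger, the probe's own. The precision is limited by the number of arrays. Platform annotation named 30113 probes with 1 symbol and 8 with several, and it did not list 17201, which are unnamed here.

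The members, the 9 gene lists, the markers and the naming rule were chosen with earlier results of these data known. The rule named the members, ADAR, up to 2 rises and 2 falls per list of largest size among called genes whose groups did not overlap, and the 3 genes closest in pattern to CDH1 and to a cadherin member that rose, of which there was none. Some other listed genes are named to complete a list or to show where detection limits a count. Of the detected probes 30.1% in the ADAR shRNA pair and 42.4% in the scrambled pair differed by more than bead error, where bead error alone gives 5%, which does not tell separate cultures from repeat hybridizations of 1 RNA. On simulated data with 21263 probes and 200 changed, 52% of those set to 1 on the log2 scale and 100% of those set to 2 were called. Of the unchanged probes 13 were called. In the real data 50.5% of probes were called, and the adjustment depends on that share. The simulated rates are therefore not the power of the comparison made here. The alternatives were other background corrections, scalings, filters and variance models, the authors' values, a replicate block, 1 probe per gene, and leaving out each array.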

Additional observations from a re-analysis of the deposited data

How the results depend on the processing

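Of the member genes, CDH1, CDH3 and CTNND1 kept their direction and call under all 14 alternatives that tested them, with log2 changes from -7.75 to -5.96, from -6.37 to -4.57 and from -1.38 to -0.55. For CTNND1 this covers its brightest probe ILMN_1696806 alone, and its other tested probes were not called in the main fit. In place of 2 member probes higher and 5 lower, median scaling gave 0 and 8, no normalization 0 and 10, and the authors' values and no filter on detection each 1 and 3. Detection p under 0.01 on all 4 arrays left 3 member probes lower and 1 member gene lower, since it removes CDH1, CDH3, CDH6 and CTNND1, and with 1 probe per gene 1 member probe was higher. Member genes gave 0 higher with median scaling and 0 higher and 7 lower with no normalization. The other pathway genes, 19 higher and 28 lower of 71, gave 12 higher with median scaling, 11 with no normalization, and 18 lower with the stricter detection filter. Without 1 array at a time, member probes gave 0 to 2 higher and 3 to 6 lower, member genes 0 to 1 higher and 3 to 4 lower, and pathway genes 15 to 17 higher and 21 to 30 lower. CDH11 reversed to -0.19 and -0.32 with median scaling and no normalization, CTNNAL1 to -0.018 with no normalization, and CDH2, from -0.030 to 0.0070 without 1 array at a time, was above 0 without ADAR shRNA replicate 2. The cause of these shifts was not tested. Groups shared replicate numbers, but nothing says that equal numbers mark a shared culture or day, and deviations of same-numbered arrays correlated at 0.14 over probes. With the replicate block 2 member probes were higher and 7 lower, and 20 pathway genes were higher and 32 lower. The block made CTNNB1 pass (adjusted p = 0.0311) and ended no call of a member gene. Probes near background, as for CDH6 and CTNND1, limit what these arrays can show.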

Other observations

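Protocadherins and the large FAT and CELSR cadherins changed in both directions. Of 20 listed genes 11 were tested, 3 rose and 3 fell, while of all genes 24.1% rose and 30.2% fell. PCDH15, known from hair cell tip links, gave raw signals of 101 and 98.5 on the ADAR shRNA arrays, against 56.8 and 61.0 on the scrambled arrays, where it was undetected, and was at least 2.96-fold higher in ADAR shRNA cells (adjusted p = 0.000206). CELSR2, a planar cell polarity cadherin, changed by 1.66 (SE 0.23, adjusted p = 0.00078). PCDH7 was 2.83-fold lower in ADAR shRNA cells (SE of the log2 change 0.20, adjusted p = 0.000577), and its other probe had a log2 change of -0.76. FAT4, detected on 1 of 2 ADAR shRNA arrays, was at least 1.79-fold lower in ADAR shRNA cells (adjusted p = 0.0292), a call lost under 5 alternatives, among them without ADAR shRNA replicate 1 (adjusted p = 0.157) and without scrambled replicate 2 (adjusted p = 0.159).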
